A study of Mus musculus with 2 samples.

Results

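The proteasome is the protease that degrades ubiquitin-tagged proteins and cuts peptides for presentation on MHC class I. Its genes were described here in total RNA-seq libraries of neutrophils from mouse spleen. The members are the genes with a protein-coding transcript whose symbol is Psm followed by a letter from a to g and a number, with pseudogene entries left out. There are 50 such genes among 55536 Ensembl genes in the deposited gene tables, on 16 chromosomes. They were chosen by name and not by level. Of these, 49 encode proteasome subunits, activators, an inhibitor or assembly factors, and Psmc3ip, a meiotic recombination factor, matches by symbol alone.

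The data come from 1 group with 2 libraries, called replicates 1 and 2. The cells were primary neutrophils of adult male B6CASTF1/J mice, the F1 hybrid of C57BL/6 and CAST/EiJ, at 65 days, with no treatment named. Each library started from 300 ng of RNA, to which ERCC spike-in RNA was added, and they are labelled as biological replicates from different biosamples. Both carry the same donor identifier and separate animals are not stated, so technical and biological parts of their spread cannot be told apart. All reads were quantified on mm10, and an effect of the CAST alleles, which differ in sequence from that build, was not tested. The gene tables hold 18387963 expected counts for replicate 1 and 18090108 for replicate 2. All 13 neutrophil markers, among them S100a8, Ngp and Ly6g, were detected. Levels are the deposited TPM of the gene tables, given as mean ± SD with n = 2 unless stated. In bulk RNA, fewer cells expressing a gene and less of its RNA per cell cannot be told apart.

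As background, the 20S core is a barrel of alpha and beta rings, and a pair of beta rings carries the catalytic subunits Psmb6 (caspase-like), Psmb7 (trypsin-like) and Psmb5 (chymotrypsin-like). In immune cells and after interferon gamma these are replaced by Psmb9, Psmb10 and Psmb8 to form the immunoproteasome, which favours peptides that bind MHC class I. The 19S particle recognises and unfolds ubiquitin-tagged substrates, and the PA28 activator Psme1/Psme2 is an alternative cap that is also induced by interferon gamma.

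The stretches shown here are intronic sequences that set a retained-intron transcript of Psmb8 and one of Psmb10 apart from their protein-coding transcripts. The comparison of immunoproteasome and constitutive genes changed when transcripts not annotated as protein-coding were left out. Those left out are of the retained-intron type and of other types. Psmb8-205 is annotated as a retained-intron transcript. It keeps an intron of 190 nt that lies between coding exons of Psmb8-203, at chr17:34199381-34199570 on the plus strand of GRCm38, and the stretch chr17:34199351-34199600 shows it in capitals between 30 coding bases on each side. Psmb10-205, also a retained-intron transcript, starts inside an intron, and the stretch chr8:105936952-105937038 on the minus strand shows its 57 intronic bases in capitals before 30 coding bases. Both sequences were read from the GENCODE M21 transcripts.
Psmb8-205: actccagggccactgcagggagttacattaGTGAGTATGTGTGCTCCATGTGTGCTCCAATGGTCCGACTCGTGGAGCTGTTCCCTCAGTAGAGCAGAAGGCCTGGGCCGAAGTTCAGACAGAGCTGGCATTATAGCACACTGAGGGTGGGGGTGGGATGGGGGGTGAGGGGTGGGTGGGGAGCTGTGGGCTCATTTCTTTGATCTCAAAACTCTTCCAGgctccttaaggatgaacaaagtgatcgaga
Psmb10-205: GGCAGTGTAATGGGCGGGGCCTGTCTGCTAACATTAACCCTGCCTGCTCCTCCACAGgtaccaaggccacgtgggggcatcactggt

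Proteasome genes were expressed broadly, with the 20S and 19S subunits well above the assembly factors. A level of at least 1 TPM in both libraries was found for 48 of the 50 members, against 43.3% of 22028 protein-coding genes and 19.9% of all Ensembl genes. The median member had 24.7 ± 5.46 TPM, whereas the median of 14633 expressed protein-coding genes was 4.45 ± 0.594 TPM. In both libraries 43 members lay above that median. Together the members took 0.320% ± 0.0106 of the TPM of protein-coding genes. Only Psmd5, Psmd6 and Psme4 had a higher TPM in replicate 1 than in replicate 2. The TPM of all protein-coding genes summed to 328306 in replicate 1 and 454126 in replicate 2, a ratio of 1.38, and the members' sum was 1.32 times as high in replicate 2. With TPM rescaled to protein-coding genes alone, 31 of the 48 detected members were higher in replicate 1, among them Psmb9 at 95.1 in replicate 1 and 78.2 in replicate 2, and Psmb5 at 58.5 and 53.6. The share of all genes higher in replicate 1 on that scale was not computed, so this count shows no lean particular to the members.

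**Figure D1:**
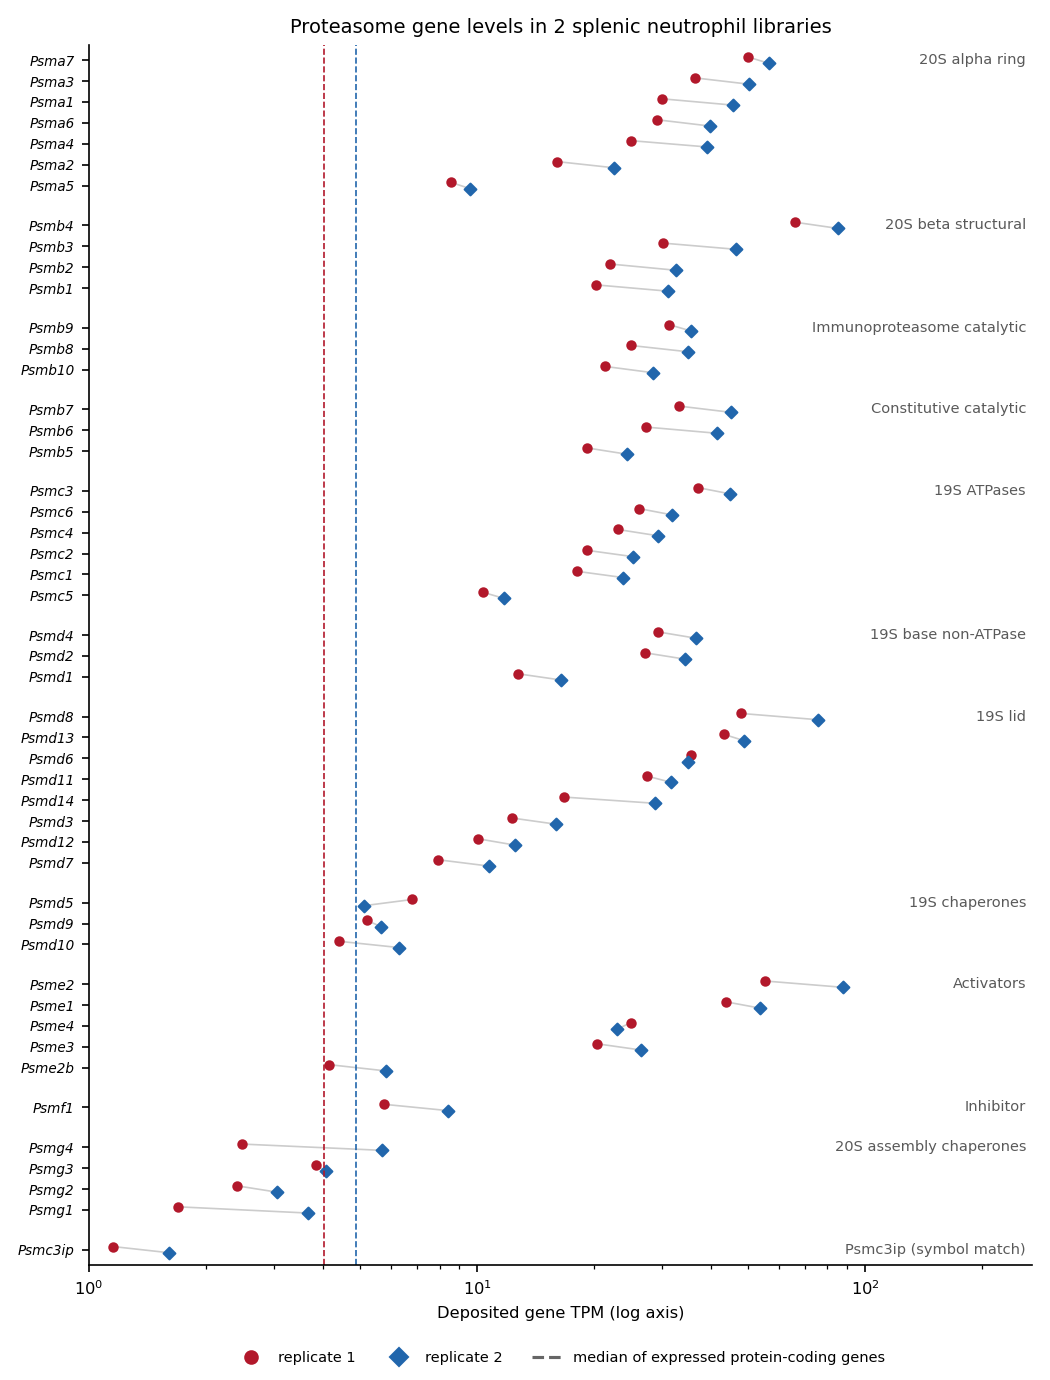
Deposited TPM (log axis) of the 48 detected members in replicate 1 (red circles) and replicate 2 (blue diamonds), grouped by subcomplex. The dashed lines mark the median of expressed protein-coding genes, at 4.03 TPM in replicate 1 and 4.87 TPM in replicate 2; Psmg1, Psmg2, Psmg3 and Psmc3ip lie below their library's line in both.

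The alpha ring, whose outer face gates the entry of substrates, had a median of 34.4 ± 7.57 TPM over Psma1 to Psma7. Psma7 was the highest at 49.95 TPM in replicate 1 and 56.43 TPM in replicate 2. Psma5 was the lowest of the ring at 8.57 TPM in replicate 1 and 9.60 TPM in replicate 2. Although the assembled ring holds equal numbers of each alpha subunit, RNA levels differed between its genes. Psma5 and Psma7 were picked as the extremes, so the gap between them was fixed by that choice. On protein-coding transcripts alone, by RSEM, Psma7 kept 30.18 TPM (replicate 1) and 39.92 TPM (replicate 2). Psma1 then lay above it in replicate 2, at 40.2 TPM. Psma5, with all its TPM on such transcripts, stayed the lowest of the ring. The non-catalytic beta subunits Psmb1 to Psmb4 had a median of 32.8 ± 9.57 TPM. Psmb4, which helps the beta rings to assemble, had 65.83 TPM in replicate 1 and 85.17 TPM in replicate 2, which was the highest mean of all members. Over the 11 non-catalytic 20S genes the highest level, that of Psmb4, was 7.68 times the lowest, that of Psma5, in replicate 1 and 8.87 times in replicate 2. These folds include transcripts not annotated as protein-coding. On protein-coding transcripts alone, by RSEM, Psmb4 had 23.0 TPM in replicate 1 and 35.58 TPM in replicate 2. It then lay below Psmb3, at 25.57 and 41.34 TPM, and the levels of Psma5 stayed the same.

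The 6 ATPases of the 19S base, which unfold substrates, had a median of 24.2 ± 4.28 TPM. Psmc3 was the highest of them at 41.0 ± 5.54 TPM and Psmc5 the lowest, with 10.34 TPM for replicate 1 and 11.73 TPM for replicate 2. The base also holds the scaffold subunits Psmd1 (14.6 ± 2.63 TPM) and Psmd2 (30.7 ± 5.06 TPM) and the ubiquitin receptor Psmd4 (32.9 ± 5.18 TPM). The 8 lid genes had a median of 26.2 ± 5.77 TPM. Psmd8 was the highest lid gene at 61.7 ± 19.6 TPM, and Psmd14, the deubiquitinase of the lid, had 16.72 TPM in replicate 1 and 28.79 TPM in replicate 2. On the log2 TPM scale the median of the 20S non-catalytic genes lay 0.39 ± 0.08 above that of the 17 genes of the 19S particle.

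Genes for assembly factors were low. The 20S chaperones Psmg1 to Psmg4, which act on forming alpha rings, had a median of 3.16 ± 1.01 TPM, and the 20S non-catalytic genes lay 3.42 ± 0.14 above them on the log2 scale. The 19S base chaperones Psmd5, Psmd9 and Psmd10 lay between 5.35 and 5.95 TPM, with the 19S genes 2.24 ± 0.15 above them on the log2 scale. Psmf1, an inhibitor of the 20S core in vitro, had 7.10 ± 1.87 TPM. Psmc3ip was the lowest detected member at 1.38 ± 0.325 TPM.

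Among the activators, Psme2 and Psme1, the PA28 subunits, were the highest. Psme2 had 55.23 TPM in replicate 1 and 87.53 TPM in replicate 2. Psme1 had 43.93 TPM in replicate 1 and 53.70 TPM in replicate 2. Psme3, the nuclear PA28 subunit, averaged 23.4 ± 4.31 TPM, and Psme4, the large activator PA200, averaged 23.9 ± 1.35 TPM. Psme2b, a paralogue of Psme2, had 4.99 ± 1.18 TPM; its expected counts and those of Psme2 were not whole, so reads were split between genes and both levels are uncertain. A short retained-intron transcript of 185 nt, Psme2-203, held 17.3 TPM of Psme2 in replicate 1 and 33.1 TPM in replicate 2 by RSEM, against 2.86 and 0 TPM by kallisto.

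The variants of other tissues were at or near 0 in the gene tables. In expected counts, Psma8, the alpha subunit of the testis, had 0 counts in replicate 1 and 1 count in replicate 2. Psmb11, the catalytic subunit of the thymus cortex, likewise had 0 counts in replicate 1 and 1 count in replicate 2. A count of 3, taken as the floor per library, corresponds to 0.145 TPM in replicate 1 and 0.411 TPM in replicate 2 for Psma8, and to 0.0596 TPM in replicate 1 and 0.0389 TPM in replicate 2 for Psmb11. This floor covers counting error only. The kallisto-layout table differed for Psmb11, with 40.5 estimated counts (0.354 TPM) in replicate 1 and 37.2 (0.413 TPM) in replicate 2. For Psma8 it held 2.00 estimated counts in replicate 1 and 2.13 in replicate 2. Thus Psma8 stayed under the floor of 3 counts in both tables, and whether Psmb11 did depended on the table.

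The central comparison set Psmb8, Psmb9 and Psmb10 against the subunits they replace. Summed over all transcripts of a gene, the immunoproteasome genes were expressed at about the level of the constitutive ones, and the direction differed between the 3 pairs. Psmb8 had 24.95 TPM in replicate 1 and 34.96 TPM in replicate 2, against 19.21 and 24.33 TPM for Psmb5. The Psmb8 level was higher in both libraries, by 0.45 ± 0.10 on the log2 scale. The expected counts of Psmb5, 334.84 in replicate 1 and 351.61 in replicate 2, were not whole, so its level is uncertain. By kallisto Psmb5 had 14.1 TPM in replicate 1 and 22.7 TPM in replicate 2, and the difference of the pair was 0.64 ± 0.05. Psmb9 had 31.22 TPM in replicate 1 and 35.50 TPM in replicate 2, against 27.19 and 41.60 TPM for Psmb6. That difference changed sign between the libraries, at -0.01 ± 0.30. Psmb10 had 21.35 TPM in replicate 1 and 28.33 TPM in replicate 2, against 33.23 and 45.24 TPM for Psmb7. Psmb10 was lower in both libraries, with a log2 difference of -0.65 ± 0.03. The mean of the immunoproteasome set minus that of the constitutive set was -0.07 ± 0.08, within 1 SD of 0, and the immunoproteasome genes took 48.2% ± 1.61 of the summed TPM of the 6 genes. With 1 group there is no test between conditions, and genes are not replicates, so these are descriptions.

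The authors' table gives an interval beside each TPM, whose level is not given in the sources used here. The interval need not hold the TPM itself: Psma8 had 0 TPM in replicate 1 with bounds of 0.130 and 0.901. Each interval belongs to 1 library and does not cover the spread between libraries. Within each library the interval of Psmb8 (22.3 to 27.0 TPM in replicate 1 and 31.3 to 37.1 TPM in replicate 2) lay above that of Psmb5 (16.9 to 21.2 and 21.1 to 26.5 TPM). For Psmb9 (27.5 to 34.9 and 30.7 to 39.3 TPM) and Psmb6 (24.0 to 29.2 and 37.0 to 43.9 TPM) the intervals overlapped in both libraries. The interval of Psmb10 (18.4 to 24.7 and 24.5 to 32.1 TPM) lay below that of Psmb7 (30.1 to 34.5 and 40.9 to 46.5 TPM) in both.

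**Figure D2:**
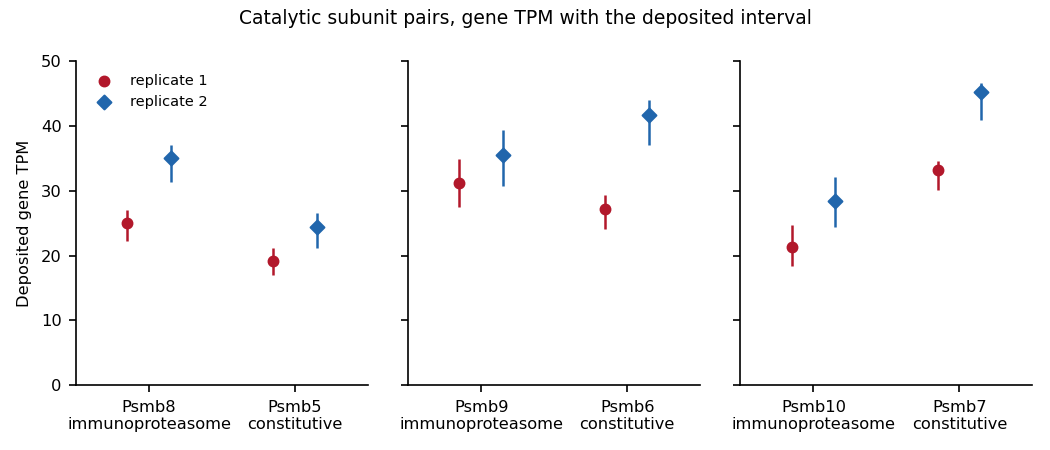
Deposited gene TPM of each immunoproteasome gene (left) and the constitutive gene it replaces (right), with replicate 1 as red circles, replicate 2 as blue diamonds and the interval deposited beside each value as a line. Psmb8 lies above Psmb5 and Psmb10 below Psmb7 within each library, while Psmb9 and Psmb6 overlap.

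These gene levels include transcripts that are not annotated as protein-coding. Total RNA libraries can hold intron-bearing RNA, so the deposited transcript tables were summed over protein-coding transcripts alone, a step chosen after seeing the data. The share of TPM on protein-coding transcripts was lower for the immunoproteasome genes in the pairs of Psmb8 and Psmb10. In the kallisto-layout table it averaged 61.8% for Psmb8, against 100% for Psmb5, and the RSEM-layout value was 37.5%, against 100%. The annotation holds only protein-coding transcripts for Psmb5, so its share was fixed at 100% and could not fall. Psmb8, Psmb9 and Psmb10 have 7 annotated transcripts each, against 2 for Psmb5, 4 for Psmb6 and 2 for Psmb7. For Psmb10 it averaged 35.2% by kallisto and 27.8% by RSEM, against 91.2% and 90.6% for Psmb7. For Psmb9 the shares were 74.4% by kallisto and 67.4% by RSEM, against 72.5% and 74.7% for Psmb6. In replicate 2 the RSEM share of Psmb9 was 57.4%, against 76.5% for Psmb6, whereas in replicate 1 it was 77.5%, against 72.9%. A share of counts weighs long transcripts more than a share of TPM does, and on that scale every immunoproteasome gene was below its counterpart by both quantifiers. The share of counts averaged 58.0% for Psmb8 by kallisto and 27.7% by RSEM, against 100% for Psmb5. For Psmb9 it averaged 59.9% by kallisto and 53.9% by RSEM, against 73.3% and 75.5% for Psmb6. The gap of Psmb10 was smaller by counts, at 65.6% by kallisto and 51.2% by RSEM, against 78.6% and 78.9% for Psmb7.

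**Figure D3:**
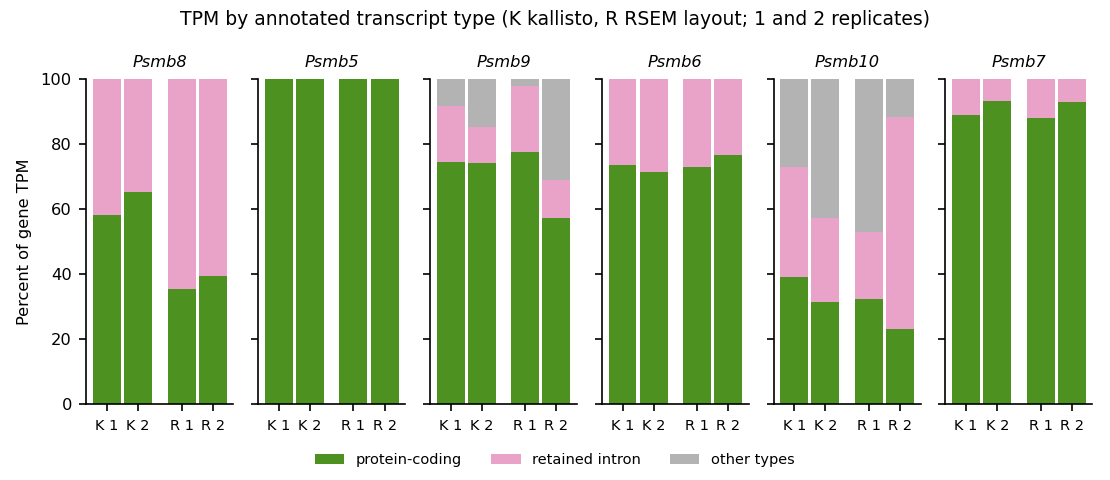
Percent of each gene's TPM on transcripts annotated as protein-coding (green), retained intron (pink) or other types (grey), for the kallisto (K) and RSEM (R) tables in replicates 1 and 2. Psmb8 and Psmb10 have the smallest green shares. Psmb5 has no annotated transcript of another type, so its bars are green by annotation.

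On protein-coding transcripts alone the immunoproteasome set was lower than the constitutive set in both libraries and by both quantifiers. The set difference was -0.62 ± 0.05 on the log2 scale by kallisto and -1.17 ± 0.29 by RSEM. By RSEM, Psmb8 kept 8.83 TPM in replicate 1 and 13.82 TPM in replicate 2, against 19.21 and 24.33 TPM for Psmb5. The Psmb5 level could not change in this step, because all its annotated transcripts are protein-coding. By kallisto, Psmb8 kept 13.1 and 22.5 TPM, against 14.1 and 22.7 TPM for Psmb5, so the direction seen over all transcripts turned by RSEM, to -0.96 ± 0.21, and the difference by kallisto, -0.06 ± 0.07, was within 1 SD of 0. Psmb10 kept 6.91 and 6.57 TPM by RSEM, against 29.28 and 42.07 TPM for Psmb7. The difference of that pair was -2.04 ± 0.17 by kallisto and -2.36 ± 0.42 by RSEM. For Psmb9 and Psmb6 it was 0.24 ± 0.06 by kallisto and -0.18 ± 0.65 by RSEM.

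**Figure D4:**
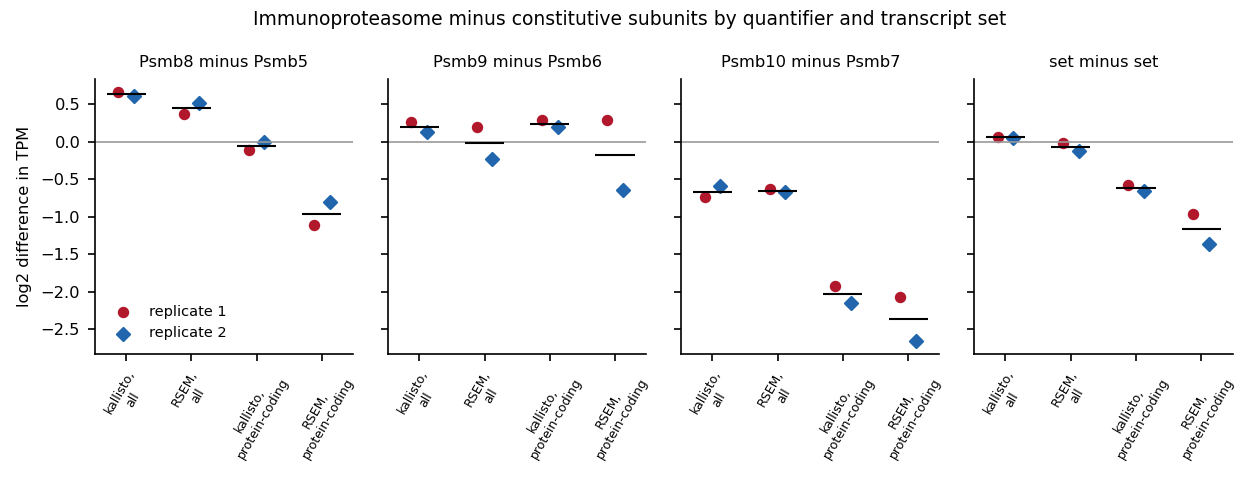
Log2 difference in TPM of each immunoproteasome gene minus its constitutive counterpart, and of the set means, for both quantifiers over all transcripts and over protein-coding transcripts alone; points are libraries and bars their means. The set difference is near 0 over all transcripts and below 0 in both libraries over protein-coding transcripts.

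The transcripts behind these shares differed between the quantifiers. Psmb8-205, whose retained intron is shown above in capitals, was the leading Psmb8 transcript by RSEM, with 55.2% of the gene's TPM in replicate 1 and 46.2% in replicate 2. By kallisto it held 27.9% and 19.3%, and the protein-coding Psmb8-203 led with 34.4% and 39.6%. Psmb10 had no stable leader. Its processed transcript Psmb10-203, of 426 nt, led by RSEM in replicate 1 with 46.9%, whereas Psmb10-205 led in replicate 2 with 46.5%. By kallisto the protein-coding Psmb10-201 led in replicate 1 with 39.1%, and Psmb10-203 led in replicate 2 with 42.8%. Psmb10-205 held 14.5% in replicate 1 by RSEM, and 22.5% in replicate 1 and 10.8% in replicate 2 by kallisto. For Psmb9 the protein-coding Psmb9-202, of 433 nt, led in both libraries by both quantifiers, with 32.4% to 43.8% of the TPM. By RSEM this short transcript held 13.66 of the 24.19 TPM on protein-coding Psmb9 transcripts in replicate 1 and 11.50 of 20.38 TPM in replicate 2. The longer protein-coding Psmb9-204, of 1352 nt, held 10.53 and 8.39 TPM. Whether Psmb9-202 encodes a complete subunit was not examined, and the comparison of Psmb9 with Psmb6 above includes it. Psmb9-207, annotated as a nonsense-mediated decay transcript, held 2.02% in replicate 1 and 31.2% in replicate 2 by RSEM. By kallisto it held 8.20% and 14.7%. Overlapping transcripts share reads, and the part of their division in these shares was not tested.

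Low protein-coding shares of TPM were also found across other genes. Among the 42 members with a transcript of another type, the median share was 71.2% by kallisto and 73.5% by RSEM, against 66.2% and 69.8% over protein-coding genes expressed at 1 TPM or more with such a transcript. A share under 50% was found for 10 of the 42 members by kallisto and 7 by RSEM (23.8% and 16.7%), against 28.5% and 24.5% of those genes. The 7 by RSEM were Psmb8, Psmb10, Psmb4, Psmc6, Psmd6, Psmd9 and Psmc3ip. By counts, Psmb8, Psmd9 and Psmc3ip alone of the 42 were under 50% by RSEM, against 12.3% of those genes, and Psma3, Psmc6, Psmd9 and Psmc3ip were by kallisto, against 14.0%. The median share of counts was 72.8% by kallisto and 78.5% by RSEM for the members, against 83.1% and 84.4% for those genes, so the members' median lay above that of those genes by TPM and below it by counts. Psmb4 kept 23.0 and 35.6 of its 65.83 and 85.17 TPM on the protein-coding transcript.

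Gene levels themselves depended little on the quantifier. None of 48 members was over 2-fold apart between kallisto and RSEM in both libraries, against 13.2% of all genes compared and 4.19% of protein-coding genes, and 44 lay within 1.5-fold in both. The largest differences, kallisto over RSEM on the log2 scale, were 0.70 ± 0.09 for Psmd9 and -0.53 ± 0.15 for Psme2. The leading transcript was the same in both libraries for 39 members by kallisto and 44 by RSEM, and it was the same in both libraries and by both quantifiers for 32.

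Neighbouring genes were examined because Psmb8 and Psmb9 lie within the MHC region of chromosome 17, beside the peptide transporter genes Tap1 and Tap2. Psmb9 (chr17:34181987-34187764, minus strand) overlaps Tap1, on the opposite strand, by 212 nt, and Psmb8 (chr17:34197721-34201454, plus strand) begins 495 nt beyond Tap1. Tap1 had 20.17 TPM in replicate 1 and 22.53 TPM in replicate 2, below the 31.22 and 35.50 TPM of Psmb9. The kit was directional, but whether the counting used strand is not given in the sources used here, so reads from the overlap cannot be assigned with certainty. An antisense gene covers 2139 nt of Psmb8 (Gm20496), and another covers all of Psmb10 (Gm16156, 2710 nt); both had 0 counts in both libraries.

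Promoters were compared by the motifs of interferon regulatory factors, of NRF1 and NRF2, and by the CCAAT box, on both strands, in windows running from 250 bases before to 50 after each RefSeq start. RefSeq promoters (GRCm38.p6) matched 42 members. The core of the interferon-stimulated response element was present in 5 of them (Psmb3, Psmd4, Psmd9, Psme1 and Psmg4; 11.9%), against 3.99% of 27025 genes, and in none of Psmb8, Psmb9 and Psmb10. TGACNNNGC, the core of the antioxidant response element, was present in 6 (14.3%, against 14.0%), including Psmb5 and Psmb6. CCAAT was present in 15 (35.7%, against 41.1%), including Psmb9. In the 150 bases before the start alone, the interferon motif was left in 1 member (2.38%, against 1.85%) and TGACNNNGC in 3 (7.14%, against 7.74%). These matches are letters in a window and not evidence of binding. For TGACNNNGC the share of members was near that of all genes in both windows. Psmb7, Psmb8, Psmb9 and Psmb10 were not among the members holding it. The 80 bases before the starts of Psmb5 (chr14:54617996-54618075, minus strand) and Psmb6 (chr11:70525277-70525356, plus strand) are shown, with the TGACNNNGC match in capitals. These genes were picked because the match lies close to their start.
Psmb5: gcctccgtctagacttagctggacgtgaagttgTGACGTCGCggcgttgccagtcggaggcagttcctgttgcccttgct
Psmb6: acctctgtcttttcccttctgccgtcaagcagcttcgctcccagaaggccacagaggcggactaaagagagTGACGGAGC

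The libraries were then compared with each other, which says how repeatable the levels were and nothing about a condition. Ratios are counts of replicate 1 over replicate 2 after TMM scaling, and the test was an exact two-sided binomial test with Benjamini-Hochberg adjustment over all 15118 genes tested. On this TMM scale proteasome genes leaned towards replicate 2. Of 48 members tested, 15 were higher in replicate 2 (31.3%), against 17.0% of all genes, and 1 was higher in replicate 1 (2.08%), against 15.0% of all genes. In either direction 16 were called (33.3%), near the 32.1% of all genes. The ratio was below 0 for 37 members (77.1%), against 50.2% of all genes and 53.3% of protein-coding genes tested, and the median log2 ratio was -0.13 for the members and -0.02 for protein-coding genes tested. No called member differed 2-fold or more. The number of members on each side depended on the scale. With TPM rescaled to protein-coding genes alone, 31 of the 48 detected members were higher in replicate 1, as given above. No share of all genes stands beside that count, so whether the members lean on that scale was not tested. Scaled by the ERCC spike-in totals instead, which moved the median log2 ratio of all genes to -0.74, all 48 members were called higher in replicate 2, against 75.1% of all genes called in either direction, and the members' median of -0.87 still lay below that of all genes.

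Under TMM scaling the median log2 ratio was below 0 in every subcomplex, and lowest for the 20S assembly chaperones, at -0.49. More calls lay among the 20S genes than among the 19S genes. Of the 11 non-catalytic 20S genes 7 were called higher in replicate 2, with a median log2 ratio of -0.30. Of the 17 genes of the 19S particle 2 were, with a median of -0.10. Of all genes 17.0% were. A difference between these groups was not tested. Psmb1, for example, gave 756 counts in replicate 1 against 979 in replicate 2, a log2 ratio of -0.36 with an adjusted p of 2.83e-06 in the exact binomial test. Psmd8 and Psmd14 were the 19S genes called, at log2 ratios of -0.41 and -0.43. None of the 6 ATPases was called by the exact binomial test, against 32.1% of all genes called in either direction. Psmc6 alone of the 6 had an unadjusted p under 0.05. The ratios of greatest size belonged to the low chaperone genes Psmg4 (23 against 46 counts, log2 ratio -0.97) and Psmg1 (33 against 62 counts, -0.88).

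Among the catalytic genes, Psmb8 was called: its 552 counts in replicate 1 against 659 in replicate 2 gave a log2 ratio of -0.24 and an adjusted p of 0.0157 in the exact binomial test. Psmb6 was called as well, with 411 against 532 counts, a log2 ratio of -0.36 and an adjusted p of 0.00101 in the exact binomial test. Psmb9, Psmb10, Psmb5 and Psmb7 were not called, at log2 ratios of 0.07, -0.16, -0.05 and -0.10; the sign for Psmb9 turned under ERCC scaling and with kallisto counts. Both PA28 genes were higher in replicate 2, Psme1 at -0.26 and Psme2 at -0.33. Psme4, with 1630 against 1507 counts, was the gene higher in replicate 1, at 0.13 (exact binomial test, adjusted p = 0.0389), a call that was lost under 5 other settings and turned to replicate 2 under ERCC scaling.

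The binomial test counts counting error alone. With edgeR's exact test and a trended dispersion estimated from the same libraries, 0 of the 48 members were called and 0 had an unadjusted p under 0.05, against 0.708% and 4.66% of all genes. The differences between these 2 libraries themselves set that dispersion, so this test can hardly call a gene that differs as most genes do. It therefore does not decide whether members differ between the libraries. Markers of cell types moved with the comparison as well. By the exact binomial test all 13 neutrophil markers were higher in replicate 2, their TPM summing to 37740.5 in replicate 1 and 75566 in replicate 2. Of all genes, 17.0% were higher in replicate 2 by that test. The TPM of all protein-coding genes summed was itself 1.38 times as high in replicate 2. B cell markers (4 of 5 higher in replicate 2) summed to 4.49 and 17.4 TPM. Dendritic cell and MHC class II genes (3 of 5 higher in replicate 2, Xcr1 at 0 counts) summed to 39.6 and 91.7 TPM, and erythroid genes (3 of 4) to 45.2 and 114 TPM. Macrophage markers (0 of 2 tested called) summed to 14.6 and 18.9 TPM, and T cell markers (0 of 1 tested called) to 0.56 and 0.59 TPM. Their part in the result was not tested.

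**Figure D5:**
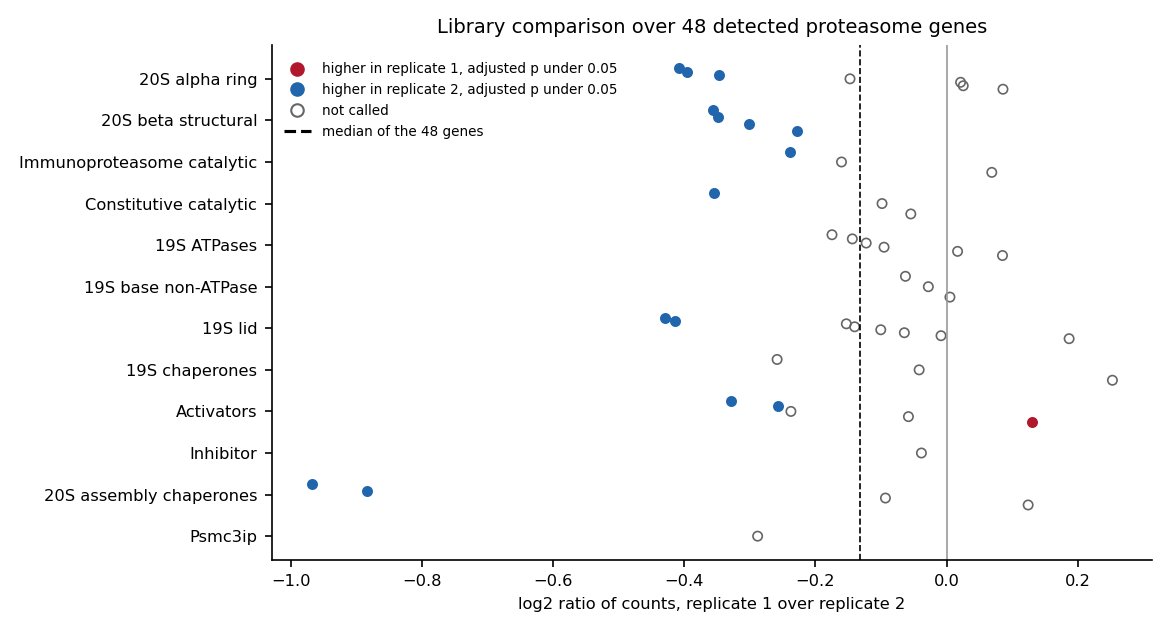
Log2 ratio of counts, replicate 1 over replicate 2, for 48 members by subcomplex; filled points passed the exact binomial test at an adjusted p under 0.05, blue where higher in replicate 2 and red where higher in replicate 1. The dashed line is the members' median of -0.13, and most filled points belong to the 20S rings.

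Partners of the proteasome outside the symbol rule were expressed at a similar level, with a median of 22.9 ± 2.89 TPM over 17 genes. Sem1, a small lid subunit, had 94.03 TPM in replicate 1 and 109.07 TPM in replicate 2. Pomp, the maturation factor of the 20S core, had 32.26 TPM in replicate 1, against 27.32 TPM in replicate 2. The ubiquitin gene Ubb had 528.25 TPM in replicate 1 and 861.55 TPM in replicate 2. Nfe2l1, which encodes the transcription factor NRF1, had 18.2 ± 3.99 TPM. In the library comparison 2 of the 17 were higher in replicate 1 (Ecpas and Ddi2) and 5 in replicate 2, among them Zfand5, Rad23b and Ubqln1, with a median log2 ratio of 0.01; of all genes, 15.0% were higher in replicate 1 and 17.0% in replicate 2. Of the 14 genes of MHC class I presentation, 8 were higher in replicate 2, against 17.0% of all genes, and Tap2 was higher in replicate 1, against 15.0%, with a median log2 ratio of -0.23 and a median level of 56.3 ± 8.76 TPM. B2m, the light chain of MHC class I, had 196.39 TPM in replicate 1 and 468.62 TPM in replicate 2. Irf1, an interferon-induced regulator of immunoproteasome genes, had 52.79 TPM in replicate 1 and 94.61 TPM in replicate 2.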

How the data were processed

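Expected counts, TPM and FPKM per gene and transcript were deposited by the authors in a table layout that RSEM writes, derived from transcriptome alignments, per the accompanying notes. Estimated counts and TPM per transcript were deposited in a table layout that kallisto writes, derived directly from FASTQ files, per the same notes. Both used mm10 and GENCODE M21; RSEM and kallisto are names of layouts, and which program or aligner made them is not given in the sources used here. Of the members, 39 had whole expected counts in both libraries, within 0.005. Expected counts were rounded to whole numbers for tests. Libraries were compared over genes whose counts in both libraries add up to 10 or more, with edgeR 4.0.16 (binomTest, TMM scaling, 0.5 added to counts for ratios) in R 4.3.3; DESeq2 1.42.0 size factors were an alternative. Very large counts take binomTest's chi-square approximation. Differences in level used log2(TPM + 0.1). Any member may be named, as may genes of 2 fixed lists and genes overlapping a member. Members and lists were chosen with earlier results of these data known. The values of 1 gene of these lists are not reported here.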

Additional observations from a re-analysis of the deposited data

How the results depend on the processing

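No paired analysis was possible because the labels give 1 group. The set difference of -0.07 between immunoproteasome and constitutive genes became 0.057 with kallisto TPM. On protein-coding transcripts alone, an alternative chosen after seeing the data, it became -1.17 by RSEM, -0.62 by kallisto and -1.12 on expected counts, since this leaves out the other transcripts. The difference of Psmb8 and Psmb5 then turned to -0.96 by RSEM and -1.04 on expected counts. By kallisto it became -0.058, which was within 1 SD of 0. Leaving out a replicate gave -0.13 to -0.02 for the set difference; the library comparison cannot leave out a library. ERCC scaling called all 48 members instead of 16, with Psmb9 at -0.67 and Psme4 at -0.61, because replicate 1 held 77841 spike-in counts and replicate 2 47081. The edgeR test with a trended dispersion called 0 members, but its dispersion comes from the same libraries that it compares, so it can hardly call typical genes. Kallisto counts turned Psmb9 to -0.073 and Psme2b to 0.17; the cause was not tested. The call of Psme4 was lost with DESeq2 factors, total counts, no count minimum, edgeR's dispersion and kallisto counts. At a 1.5-fold limit 1 member was apart between quantifiers instead of 0. Within 150 bases before the start the interferon response core was found in 1 member and TGACNNNGC in 3. Scaled to protein-coding genes alone, which gives a smaller total, median TPM was 88.0 (alpha ring), 83.1 (structural beta), 76.5 (immunoproteasome), 87.2 (constitutive), 62.2 (ATPases), 79.0 (base), 66.9 (lid), 14.1 (19S chaperones), 67.0 (activators), 18.1 (Psmf1), 7.996 (20S chaperones) and 3.52 (Psmc3ip). By kallisto the medians were 24.3 (base), 33.4 (lid), 6.61 (19S chaperones), 31.0 (activators) and 0.275 TPM (Psma8 and Psmb11); the cause was not tested. Depth limits low members, with 23 to 83 counts in Psmg1 to Psmg4 and Psmc3ip.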

Other observations

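Of the 4 pseudogene entries named after proteasome genes, Psmb5-ps, Psmb6-ps and Psmb6-ps2 had 0 counts in both libraries, and Psmb7-ps2 had 1 count in replicate 1 and 0 in replicate 2.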
